A study of Mus musculus with 6 samples.

Results

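Transcripts of 10 genes of myoblast fusion and sarcolemmal repair were followed in C2C12 cells, an established mouse myoblast line, taken through myotube differentiation. The genes were taken by symbol: myomaker and myomixer, the ferlins Myof and Dysf, Cav3, Bin1, Trim72, the cadherins Cdh15 and Cdh2, and the co-receptor Cdon. All 10 were found among the 24421 symbols of the count table, with myomaker (Mymk) listed as Tmem8c and myomixer (Mymx) as Gm7325, and all 10 passed the filter on low counts that left 11801 tested genes. One group carried a lentiviral hairpin against Gaa (shGAA, 3 libraries) and the other a scrambled hairpin (shScrambled, 3 libraries). Gaa encodes the lysosomal acid alpha-glucosidase, which releases glucose from glycogen in lysosomes. Both groups came from myoblasts grown with 10% fetal bovine serum, selected with puromycin and differentiated with 2% horse serum at 4.5 g/l glucose. The titles carry the word Fed in both groups, with no explanation. The number of hairpin sequences is not given by the labels, nor whether libraries of a group were separate cultures, so the p-values speak to the spread between these 6 libraries and this may be technical.

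Skeletal muscle fibres form when mononucleated myoblasts leave the cell cycle, adhere through cadherins and related receptors, and merge their membranes. Myomaker, a multipass membrane protein, is required for the mixing of the outer membrane leaflets, and myomixer, a microprotein also called myomerger or minion, for the opening of fusion pores. The finished fibre then reseals tears of its plasma membrane with dysferlin, caveolin-3 and the tripartite motif protein MG53 (Trim72), while Bin1 bends membrane into transverse tubules.

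Of the 10 genes, 7 were lower in shGAA, 1 was higher and 2 did not pass the test (edgeR quasi-likelihood test, adjusted p under 0.05). Among all tested genes 19.7% were called lower, 18.5% higher and 38.2% in either direction. The lower genes were Mymk, Mymx, Myof, Dysf, Cav3, Trim72 and Bin1, the higher one was Cdh2, and Cdh15 and Cdon had no call. The change was at least 2-fold in 4 of them, Mymk, Mymx, Cav3 and Trim72, against 1.81% of all tested genes that were called lower by at least 2-fold. That count rested on the library shScrambled 1, since without it 0 of the 10 genes were called lower by 2-fold or more, against 1.96% of all tested genes, and without shGAA 3 the count was 2. The libraries of the groups did not overlap in 7 of the 10 genes, against 49.6% of all tested genes. Those 7 include Cav3, which had 11 counts in both shGAA 2 and shScrambled 2, so that only the scaling separated them. The median log2 fold change of shGAA over shScrambled was -0.56 over the 10 genes and 0.005 over all tested genes. The genes were chosen with earlier results of these libraries known, and no test was made of the set.

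Library totals ran between 9224038 and 10430270 counts. Gaa had 47.9, 47.5 and 51.9 CPM in shGAA against 106, 124 and 119 CPM in shScrambled (CPM, read counts normalised to the TMM-scaled library size). This was 42.1% of the control level. The library shScrambled 1 stood apart, since its counts differed from those of the other controls by a chi-square of 6.02 and 5.45 per degree of freedom, while all other pairs within a group gave 1.98 to 2.59. The 12 myotube markers summed to 2308 to 2531 CPM in shGAA and 3053 to 3397 CPM in shScrambled, and the 12 proliferation markers to 1387 to 1518 CPM in shGAA and 1791 to 2039 CPM in shScrambled. Most of the myotube sum was Des, at 1570 to 1717 CPM in shGAA and 2012 to 2087 CPM in shScrambled. In shScrambled 1 the 11 tested myotube markers stood at 1.03 (Des) to 1.92 (Myh8, 72 counts in all) times the mean of the other controls. Myh3 was at 1.69 and Ckm at 1.42 times that mean. Of the 11 myotube markers tested, 8 were lower and 0 higher, and all 12 proliferation markers were lower, against 19.7% lower and 18.5% higher among all tested genes. Fewer cells of a type and less RNA per cell cannot be told apart in bulk RNA, and the part of these differences in the results that follow was not tested. The 7 leukocyte markers summed to 1.60 to 2.86 CPM in shGAA and 2.90 to 4.0 CPM in shScrambled, with Itgam and Cd3e at 0 in all libraries. The 8 endothelium markers summed to 4.39 to 5.44 CPM in shGAA and 2.67 to 5.15 CPM in shScrambled, with Tie1, Emcn and Cldn5 at 0, and the 8 adipocyte markers to 9.30 to 12.3 CPM in shGAA and 6.77 to 8.64 CPM in shScrambled, with 5 at 0, among them Plin1 and Cidec. The 8 fibroblast markers, several of which C2C12 cells express themselves, summed to 1918 to 1985 CPM in shGAA and 2006 to 2063 CPM in shScrambled, with Thy1 at 0. Of the 7 tested, 2 were called higher and 2 lower (28.6% each). By log2 fold change these were Dcn (0.24), Lum (0.33), Col1a1 (-1.10) and Col1a2 (-0.47). The 2 tested endothelium markers were called in opposite directions, Tek at 1.32 and Cdh5 at -1.35. Pparg, the 1 adipocyte marker tested, was called higher at 0.54. These genes were named after their values were seen.

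Mymx is shown because the whole fusogen is encoded by 255 bases in 1 exon, at chr17:45601417-45601671 on the minus strand of GRCm38. It encodes 84 residues, the same in 3 of 4 annotated transcripts of GENCODE M21. The capitals mark the start and stop codons.
Mymx coding sequence: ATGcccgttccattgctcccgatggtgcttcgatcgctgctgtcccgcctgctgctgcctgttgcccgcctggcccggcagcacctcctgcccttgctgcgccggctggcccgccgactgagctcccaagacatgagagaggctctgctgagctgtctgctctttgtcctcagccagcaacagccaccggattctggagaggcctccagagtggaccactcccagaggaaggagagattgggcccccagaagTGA

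For the start regions, 7 start sites of 6 of the 10 genes were taken from the RefSeq promoter table (GRCm38.p6). It had no entry for Mymk or Mymx. Bin1, called lower, and Cdh2, the gene called higher, were left out of the search, so nothing is said here of their start regions. The 250 bases before each start were taken as its window. For Trim72, Cdh15, Cdon and start 2 of Dysf the window lies inside the GENCODE M21 gene span, downstream of its first base. The windows were searched for the E-box CANNTG, which reads the same on both strands. It is the binding sequence of MyoD, myogenin and other basic helix-loop-helix factors. It occurred in 66.2% of all 32851 windows of this length, at least 2 times in 31.8% and at least 3 times in 12.2%. Among the 6 genes it occurred 2 times before Cav3, 3 times before Trim72, 3 times before Cdh15, and not before Dysf, Myof or Cdon. The form CAGCTG, itself a CANNTG, was found in the Cav3 window and in 13.0% of all windows. A MEF2 site, searched on both strands, was found in none of the 7 windows and in 2.92% of all windows. The windows with an E-box are shown because Cav3 and Trim72 were lower while Cdh15 had no call. Each is written 5′ to 3′ on the plus strand, with the E-boxes in capitals, from chr6:112459255-112459504, chr7:128004128-128004377 and chr8:122848124-122848373.
Cav3: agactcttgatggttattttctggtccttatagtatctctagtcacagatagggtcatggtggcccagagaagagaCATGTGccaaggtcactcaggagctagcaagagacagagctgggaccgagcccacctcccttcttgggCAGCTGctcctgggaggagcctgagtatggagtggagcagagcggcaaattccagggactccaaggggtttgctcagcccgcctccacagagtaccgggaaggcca
Trim72: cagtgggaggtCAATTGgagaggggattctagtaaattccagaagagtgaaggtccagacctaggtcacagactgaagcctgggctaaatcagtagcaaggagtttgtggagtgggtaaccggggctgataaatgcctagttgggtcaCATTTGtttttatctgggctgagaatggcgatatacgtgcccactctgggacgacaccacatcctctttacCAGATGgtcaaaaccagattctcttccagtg
Cdh15: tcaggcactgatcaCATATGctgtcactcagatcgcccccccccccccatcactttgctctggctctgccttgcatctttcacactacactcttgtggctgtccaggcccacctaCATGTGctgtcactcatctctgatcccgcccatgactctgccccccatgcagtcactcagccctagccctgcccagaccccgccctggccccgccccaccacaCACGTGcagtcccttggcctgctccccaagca
The CAGCTG of Cav3 begins at position -106 from the start, and the CAGATG of Trim72 and the CACGTG of Cdh15 begin at positions -31 and -32. A match of letters is a description and not a bound site.

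The fusogens were lower in every shGAA library than in any shScrambled library. Mymk was read 344, 410 and 424 times in shGAA 1 to 3, against 983, 620 and 778 times in shScrambled 1 to 3, or 35.1, 43.7 and 39.9 CPM in shGAA against 101, 66.6 and 83.0 CPM in shScrambled. The shGAA libraries lay close together and shScrambled 1 was the highest of all. The mean was 39.6 ± 4.31 CPM in shGAA and 83.5 ± 17.2 CPM in shScrambled (SD, n = 3 each), a log2 fold change of -1.08 ± 0.17 (SE) with an edgeR adjusted p = 0.00425. Without shScrambled 1 it was -0.92 ± 0.09, and over all alternatives the adjusted p ran from 1.56e-07 to 0.0288. Mymk lies on chromosome 2 at 27061636 to 27072179 (GRCm38, GENCODE M21).

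Mymx had 52, 57 and 54 counts in shGAA against 131, 96 and 97 counts in shScrambled, or 5.31, 6.08 and 5.08 CPM against 13.5, 10.3 and 10.4 CPM. Its groups were likewise separate, with shScrambled 1 again the highest. Its log2 fold change was -1.05 ± 0.16 (edgeR adjusted p = 6.38e-05), and -0.92 without shScrambled 1. Within a library there were 15.1, 13.9 and 12.7 Mymx counts per 100 Mymk counts in shGAA and 13.3, 15.5 and 12.5 in shScrambled, so the ratio of the fusogens overlapped between the groups, at 13.9 ± 1.19 in shGAA and 13.8 ± 1.55 in shScrambled. Per kilobase of exon, Mymx stood at 5.35 ± 0.512 RPKM in shGAA and 11.1 ± 1.76 RPKM in shScrambled, below Mymk at 26.2 ± 2.85 RPKM in shGAA and 55.3 ± 11.4 RPKM in shScrambled.

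**Figure D1:**
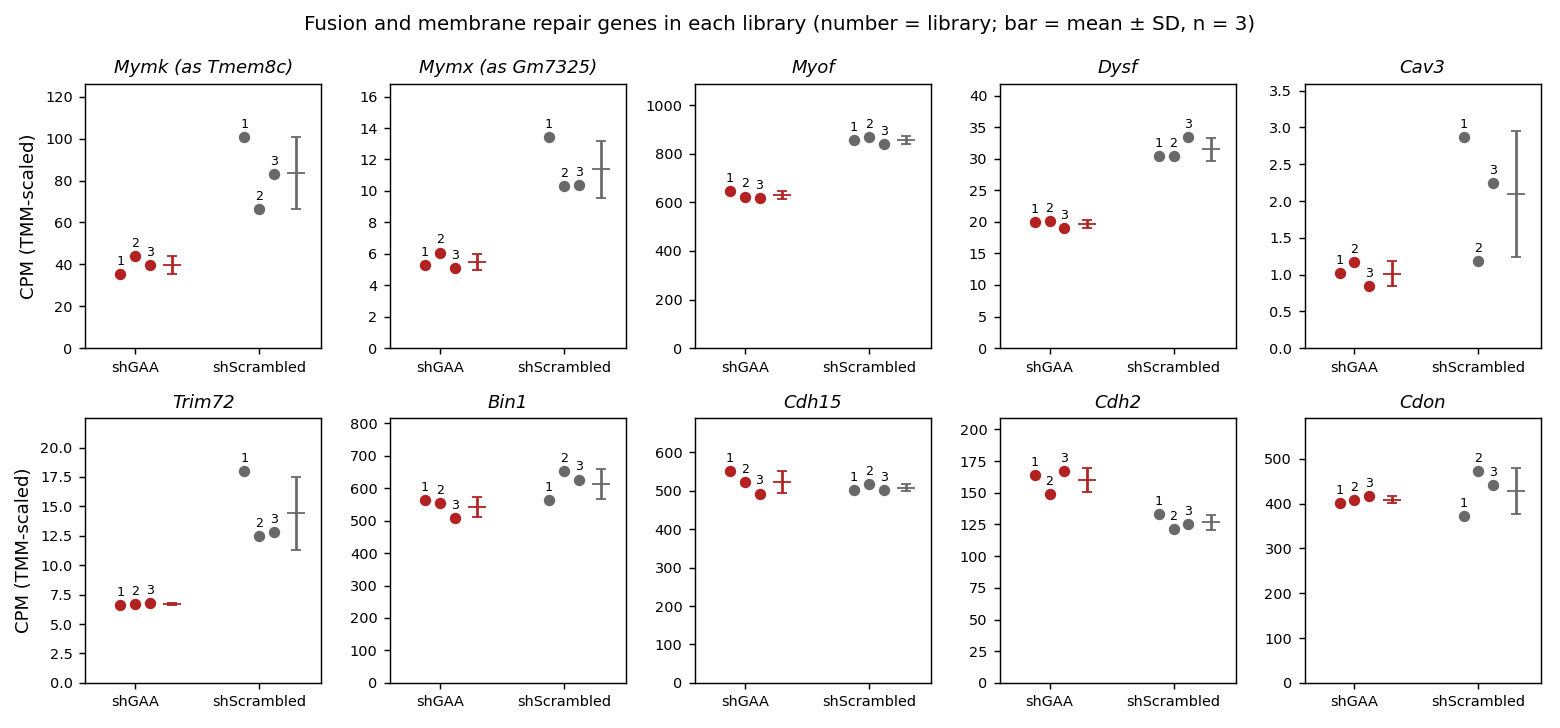
CPM of the 10 genes in each library, shGAA in red and shScrambled in grey, with the library number beside each point and mean ± SD (n = 3) to the right. Mymk, Mymx, Cav3 and Trim72 are highest in shScrambled 1, where Bin1 and Cdon are at the lowest value of their group.

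Both ferlins, large membrane proteins with several calcium-binding C2 domains, were lower. Myof (myoferlin), on chromosome 19 at 37899036 to 38043577, is abundant in myoblasts at the time of fusion. It had 647, 624 and 618 CPM in shGAA against 856, 871 and 838 CPM in shScrambled. The groups were far apart for their narrow spread, and the library that stood apart did not differ from its group here. The log2 fold change was -0.44 ± 0.04 (edgeR adjusted p = 4.30e-07), which left 73.7% of the control level.

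Dysf (dysferlin), which acts in the patching of membrane tears and is mutated in a human limb-girdle muscular dystrophy, had 20.0, 20.1 and 19.0 CPM in shGAA against 30.5, 30.4 and 33.5 CPM in shScrambled. Its groups were also separate, and the log2 fold change was -0.68 ± 0.09 (edgeR adjusted p = 1.68e-05). It lies on chromosome 6 at 84008590 to 84211060, and 5.49% of its exonic bases are shared with genes on the opposite strand. Dysf counts per 100 Myof counts were 3.09, 3.22 and 3.07 in shGAA and 3.56, 3.49 and 4.0 in shScrambled. Dysferlin RNA was therefore scarcer relative to myoferlin RNA in each shGAA library, a difference to which no test was applied. Per kilobase, Myof averaged 50.0 ± 1.22 RPKM in shGAA and 67.8 ± 1.29 RPKM in shScrambled, and Dysf 2.36 ± 0.0732 RPKM in shGAA and 3.78 ± 0.213 RPKM in shScrambled.

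Trim72 encodes MG53, which gathers vesicles at injury sites and acts with dysferlin and caveolin-3. It had 65, 63 and 72 counts in shGAA against 175, 116 and 120 counts in shScrambled, or 6.64, 6.72 and 6.77 CPM against 18.0, 12.5 and 12.8 CPM. The shGAA libraries were almost level, and shScrambled 1 stood at 1.42 times the mean of the others of its group. The log2 fold change was -1.10 ± 0.16 (edgeR adjusted p = 3.61e-05), and -0.91 ± 0.15 without shScrambled 1, with adjusted p-values of 3.74e-12 to 0.000552 over the alternatives. Trim72 lies on chromosome 7 at 128003949 to 128011033, where 27.6% of its exonic bases lie under Gm15533 on the opposite strand. The strand setting of the counting is not given, so reads of the 2 genes cannot be told apart there.

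Cav3, the muscle form of caveolin, coats caveolae and early transverse tubules. It was near the limit of detection, with 10, 11 and 9 counts in shGAA against 28, 11 and 21 in shScrambled. The highest shGAA library reached 1.17 CPM and the lowest shScrambled library 1.18 CPM, so that shGAA 2 and shScrambled 2 were level. The log2 fold change was -1.06 ± 0.37 (edgeR adjusted p = 0.0302). From the summed counts, 30 against 60, the scaled ratio was 0.477, with a 95% interval of 0.297 to 0.751 (exact Clopper-Pearson on the share of counts, counting error only). The call was lost when any 1 library except shScrambled 2 was left out. Without shScrambled 1 the value was -0.76 ± 0.40 with an adjusted p of 0.125, and the call was also lost in DESeq2 at -1.06 with an adjusted p of 0.113. Its adjusted p ran from 0.00585 to 0.125 over the alternatives. Cav3 lies on chromosome 6 at 112459505 to 112472872.

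Bin1 (amphiphysin 2), a BAR-domain protein that tubulates membrane, changed least among the called genes. It had 564, 554 and 507 CPM in shGAA against 563, 652 and 627 CPM in shScrambled. The groups overlapped, because shScrambled 1 lay within the shGAA range. The log2 fold change was -0.18 ± 0.06 (edgeR adjusted p = 0.0195), and -0.24 without shScrambled 1. It lost its call when shGAA 3, shScrambled 2 or shScrambled 3 was left out, and also under scaling by library size alone. The adjusted p ran from 5.69e-05 to 0.105 over the alternatives. Bin1 lies on chromosome 18 at 32377230 to 32435737, with 6.22% of its exonic bases under A830052D11Rik on the opposite strand. Its exons are read here as a sum, so that isoforms with and without the muscle-specific exon were not separated.

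The cadherins did not follow the fusogens. Cdh2 (N-cadherin), on chromosome 18 at 16588877 to 16809246, had 164, 149 and 167 CPM in shGAA against 133, 121 and 125 CPM in shScrambled. All shGAA libraries were above all shScrambled libraries, and the log2 fold change was 0.34 ± 0.06 (edgeR adjusted p = 0.000207). The call held in each of the 11 alternatives, with values of 0.31 to 0.39.

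Cdh15 (M-cadherin), the cadherin of muscle satellite cells and myoblasts, had 551, 523 and 493 CPM in shGAA against 503, 518 and 502 CPM in shScrambled. The groups overlapped, and the log2 fold change was 0.04 ± 0.05 (edgeR adjusted p = 0.518), with a 95% interval of -0.05 to 0.13 (estimate ± 1.96 SE). A change of the size seen in Cdh2 lies outside this interval. Cdh15 lies on chromosome 8 at 122847966 to 122867397. The counts of Cdh15 over those of Cdh2 were 3.36, 3.51 and 2.95 in shGAA and 3.78, 4.26 and 4.01 in shScrambled, so M-cadherin RNA was lower relative to N-cadherin RNA in all 3 shGAA libraries, again with no test.

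Cdon, an immunoglobulin-family co-receptor that binds cadherins and promotes differentiation, had 401, 408 and 418 CPM in shGAA against 372, 472 and 441 CPM in shScrambled. The shGAA libraries lay inside the range of the shScrambled libraries. The log2 fold change was -0.07 ± 0.07 (edgeR adjusted p = 0.502), with a 95% interval of -0.21 to 0.08. Its result turned on the control libraries. Without shScrambled 1 it was called lower at -0.16 ± 0.05 (adjusted p = 0.00485), and without shScrambled 2 it was 0.008 (adjusted p = 0.935), where the other alternatives fell between these values. Cdon lies on chromosome 9 at 35421128 to 35507652.

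**Figure D2:**
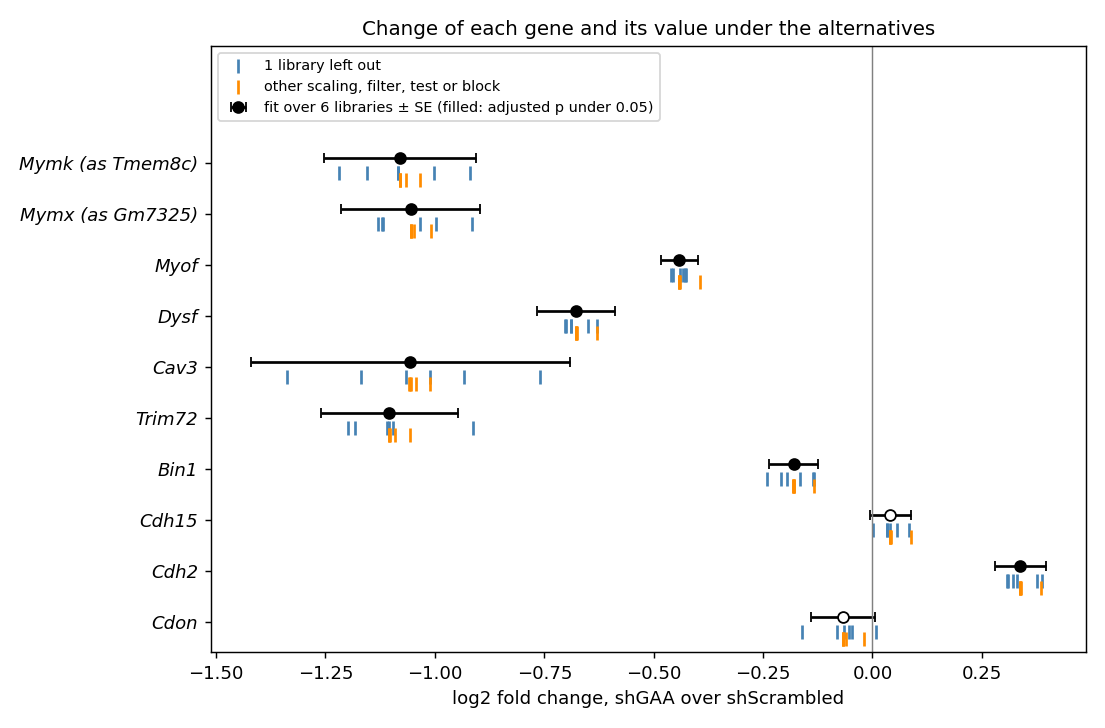
Log2 fold change of shGAA over shScrambled for each gene, with SE (black; filled where the adjusted p was under 0.05), above its values with 1 library left out (blue) and under other scalings, filter, test or block (orange). Mymk, Mymx, Cav3 and Trim72 lie near -1.1, Cdh2 at 0.34, and Cdh15 and Cdon near 0.

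Set in order by level per kilobase of exon in the controls, Cdh15 (156 ± 2.74 RPKM) and Bin1 (149 ± 11.2 RPKM) came first and did not differ beyond their spread. They were followed by Myof at 67.8 ± 1.29 RPKM. Cdon at 55.5 ± 6.66 RPKM and Mymk at 55.3 ± 11.4 RPKM were level in shScrambled, while in shGAA Cdon stood at 53.0 ± 1.10 RPKM and Mymk at 26.2 ± 2.85 RPKM. Cdh2 (15.7 ± 0.740 RPKM), Mymx (11.1 ± 1.76 RPKM), Trim72 (6.46 ± 1.38 RPKM), Dysf (3.78 ± 0.213 RPKM) and Cav3 (1.81 ± 0.740 RPKM) came last. In shGAA the order was the same except that Cdon came above Myof, at 50.0 ± 1.22 RPKM. Cdh2 stood there at 19.8 ± 1.20 RPKM and Cav3 at 0.876 ± 0.142 RPKM. The exon lengths are those of GENCODE M21, while the annotation used in the counting is not given. The order between genes may depend on these lengths, and the SD holds only the spread between libraries.

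Across the 6 libraries, log2 CPM of Mymk and Mymx went together with Pearson r = 0.98, Trim72 and Mymx with r = 0.99, and Dysf and Myof with r = 0.98. Cdh2 ran opposite to Dysf (r = -0.94). Cdon was near 0 with Mymk (r = -0.004). These are descriptions over 6 libraries that share 2 group levels, and genes that differ between the groups tend to give high values. The genes most like Mymk were Arhgap19 (r = 0.997), Arhgap28 (r = 0.996) and H2afz (r = 0.996), among 9159 genes of at least 10 CPM, of which 10.5% had r above 0.9. Pttg1ip, Bcl7a and Gpx8 were most like Mymx, each with r = 0.998, and Emp3 (r = 0.999), Fstl3 (r = 0.999) and Anapc16 (r = 0.998) most like Dysf. H2afz shares 35.4% of its 50-base stretches with transcripts of other genes, and 47.3% of the exonic bases of Fstl3 overlap Prss57 on the opposite strand.

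Of 37 genes of fusion signalling and actin remodelling 31 were tested, of which 8 were lower (25.8%), 7 higher (22.6%) and 16 without a call, with a median log2 fold change of -0.01. These shares were near those of all tested genes, 19.7% lower and 18.5% higher. Cd9, a tetraspanin of fusion-competent membranes, had 262, 269 and 268 CPM in shGAA against 434, 423 and 407 CPM in shScrambled, a log2 fold change of -0.66 ± 0.05 (edgeR adjusted p = 1.03e-08), with 10.7% of its exonic bases under Gm26728 on the opposite strand. The beta-1 integrin chain gene Itgb1 was at -0.47 ± 0.04, its laminin-binding partner Itga7 at -0.41 ± 0.05 and Dock5, an exchange factor for the GTPase Rac1, at -0.51 ± 0.06, all called lower. Higher were Wasl, an activator of actin branching, at 0.36 ± 0.06, and Adam12, a metalloproteinase of fusing myoblasts chosen after its values were seen, at 9.10 ± 0.896 CPM in shGAA and 4.45 ± 1.19 CPM in shScrambled. Rac1 itself was at -0.05 ± 0.04 (edgeR adjusted p = 0.393) and Dock1, its exchange factor in myoblast fusion, at 0.13 ± 0.06 (adjusted p = 0.109), both named after their values were seen.

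More partners of membrane repair were lower than higher. Of 32 genes 27 were tested, with 11 lower (40.7%), 2 higher (7.41%) and 14 without a call, against the 19.7% and 18.5% of all tested genes, and a median of -0.10. Anxa7 was at -0.42 ± 0.05, S100a10 at -0.35 ± 0.04 and Anxa2, which binds S100a10, at -0.26 ± 0.04. Annexins seal torn membrane in the presence of calcium, and of the 6 tested, Anxa1 (-0.17), Anxa2 and Anxa7 were lower, while Anxa4 (-0.09), Anxa5 (0.08) and Anxa6 (0.02) had no call, where those outside the naming rule were added after their values were seen. The largest fall among the 5 named genes of this list was that of Sgca, a sarcoglycan of the dystrophin complex, with 21.9, 25.5 and 20.7 CPM in shGAA against 40.8, 39.7 and 40.1 CPM in shScrambled (-0.83 ± 0.09, edgeR adjusted p = 1.59e-06). Ano5, an anoctamin mutated in another human limb-girdle muscular dystrophy, went the other way, with 115, 117 and 119 CPM in shGAA against 95.2, 83.2 and 81.9 CPM in shScrambled (0.43 ± 0.06, edgeR adjusted p = 3.88e-05).

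Of the caveolin and cavin genes in the wider list of caveolae and tubules, Cav1, Cav2, Cavin1, Cavin3 and Cavin4 fell and Cavin2 rose. Of 17 genes of caveolae and transverse tubules 15 were tested, with 7 lower (46.7%), 1 higher (6.67%) and 7 without a call, against 19.7% lower and 18.5% higher among all tested genes, and a median of -0.08. Cav2, the partner of caveolin-1, had 27.7, 23.8 and 27.9 CPM in shGAA against 51.6, 59.6 and 53.7 CPM in shScrambled (-1.05 ± 0.08, edgeR adjusted p = 6.62e-08). Cav1 was at -0.27 ± 0.06, Cavin1 (listed as Ptrf) at -0.36 ± 0.05 and the muscle cavin Cavin4 (listed as Murc) at -0.32 ± 0.06, each called lower. Cavin2 (listed as Sdpr) had 440, 454 and 428 CPM in shGAA against 173, 217 and 185 CPM in shScrambled, a log2 fold change of 1.20 ± 0.07 (edgeR adjusted p = 5.23e-08). It was the 1 gene of the list called higher, and 4 were under scaling by library size alone. Dnm2 and Mtm1, which act with Bin1 on tubule membrane and were named after their values were seen, were at 0.12 ± 0.06 (edgeR adjusted p = 0.133) and 0.001 ± 0.14 (adjusted p = 0.996).

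Around the cadherins and Cdon more partners were higher. Of 26 genes 18 were tested, with 8 higher (44.4%), 2 lower (11.1%) and 8 without a call, against 18.5% higher and 19.7% lower among all tested genes, and a median of 0.08. Neo1, which encodes neogenin, a receptor that associates with Cdon, was at 188 ± 0.756 CPM in shGAA and 146 ± 8.53 CPM in shScrambled (0.36 ± 0.05, edgeR adjusted p = 4.41e-05), and its ligand gene Ntn1 rose by 0.46 ± 0.08. Vcl (vinculin), with 25.5% of its exonic bases overlapping Ap3m1 on the opposite strand, rose by 0.27 ± 0.06 and Cdh13 by 0.23 ± 0.05. Pkp4, of the p120 catenin family, fell by 0.49 ± 0.07. The other lower gene, Cdh5, is an endothelial cadherin at 0.659 ± 0.331 CPM in shGAA and 1.73 ± 0.862 CPM in shScrambled, with overlapping groups, and its call was lost without shGAA 1, shGAA 2 or shScrambled 2. Ctnnb1 (beta-catenin) was at 0.02 ± 0.04 (edgeR adjusted p = 0.728) and Boc, the paralogue of Cdon, at -0.21 ± 0.14 (adjusted p = 0.273); these and Cdh5 were named after their values were seen.

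Regulators of the fusion genes were called in both directions. Of 27 genes 26 were tested, with 9 higher (34.6%), 6 lower (23.1%) and 11 without a call, against the same 18.5% and 19.7%, and a median of 0.05. The 5 with the smallest p were higher. Among them Heyl, a Notch effector, was at 73.8 ± 3.74 CPM in shGAA and 33.5 ± 7.10 CPM in shScrambled (1.14 ± 0.12, edgeR adjusted p = 3.90e-05). Id3, which keeps E-proteins from pairing with MyoD, rose by 0.76 ± 0.08, Snai2 by 0.68 ± 0.08, Tcf4 by 0.58 ± 0.07 and Mef2a by 0.27 ± 0.05. Myod1 and Myog, activators of Mymk transcription, were named after their values were seen. So were 2 other factors of the list, Myf5, called higher at 0.51 ± 0.10, and Mef2c, called lower at -0.64 ± 0.15. Myod1 had 67.8, 75.8 and 69.8 CPM in shGAA against 73.8, 64.0 and 69.9 CPM in shScrambled and did not pass the test (0.04 ± 0.07, edgeR adjusted p = 0.684). Myog had 37.1, 38.6 and 36.3 CPM in shGAA against 58.1, 49.6 and 42.9 CPM in shScrambled and was called lower (-0.43 ± 0.09, edgeR adjusted p = 0.00208).

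**Figure D3:**
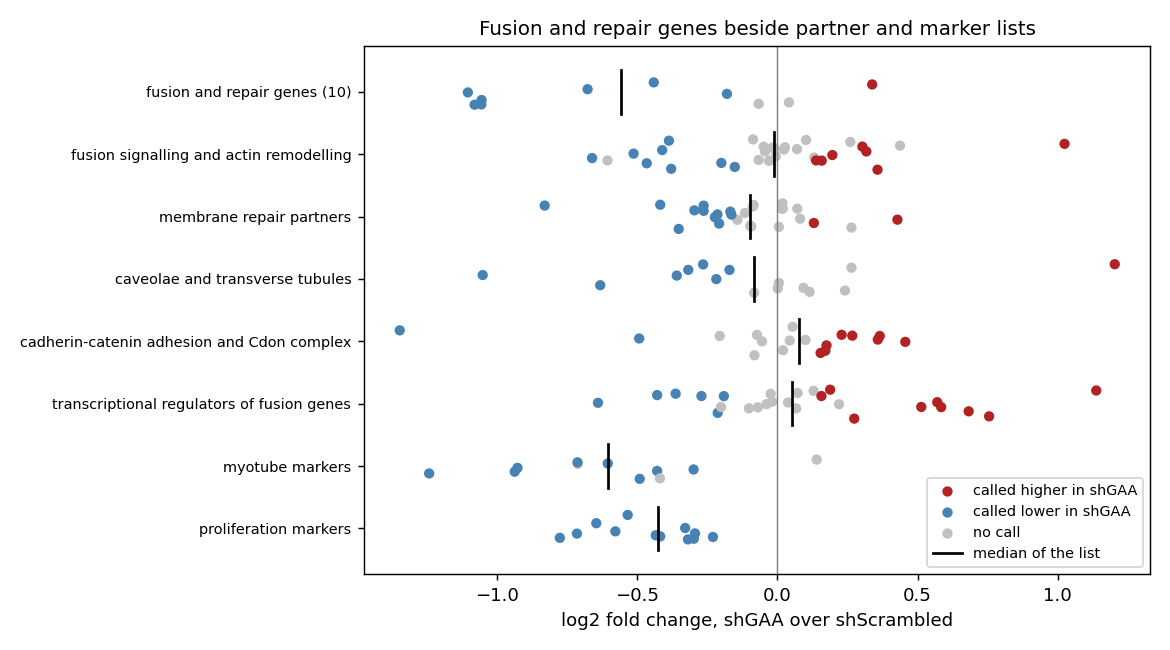
Log2 fold change of shGAA over shScrambled for each tested gene of the 10 fusion and repair genes, 5 partner lists and 2 marker lists, with calls in colour and the median as a black line. The fusion and repair genes have a median of -0.56 and the myotube markers of -0.61, while the partner lists have medians between -0.10 and 0.08.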

How the data were processed

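RNA of 6 libraries, 3 shGAA and 3 shScrambled, was counted per gene symbol. The authors deposited raw counts in 1 table with 1 column per library. The submitters' processing notes name mm10, HISAT2 2.1.0, Subread, FastQC and edgeR. The annotation, the use of strand and the treatment of reads with several positions were not given in the sources used here.

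Here genes were kept with filterByExpr (minimum count 10), scaled by TMM (factors 0.980 to 1.02) and tested with edgeR 4.0.16 in R 4.3.3 (robust quasi-likelihood F-test with a group term alone, p-values adjusted after Benjamini and Hochberg over 11801 genes). The code was tested on simulated counts. SE is the coefficient over the square root of F. RPKM is CPM per kilobase of merged exons in GENCODE M21 (GRCm38, the same build as mm10). These lengths may differ from those of the annotation used in the counting, which limits comparisons of RPKM between genes. Likeness used log2 CPM with a prior count of 2. DESeq2 1.42.0 and other alternatives follow in the closing section. The 10 genes, the lists and the tests were chosen with earlier results of these data known. Beyond the 10 genes, the naming rule took up to 5 called genes per partner list with the smallest adjusted p, and 3 genes per likeness search. One marker is not reported here. Same-numbered libraries of the groups share a number in the titles, and the labels give no other link between them. Counts between 9224038 and 10430270 per library limit precision mainly for Cav3, whose exact interval covers counting error only. The intervals of estimate ± 1.96 SE come from the fit and include the spread between libraries.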

Additional observations from a re-analysis of the deposited data

How the results depend on the processing

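The counts of calls and the log2 fold changes were recomputed with DESeq2 size factors in edgeR, library size as the only scaling, no filter on low counts, DESeq2, a replicate block, and each library left out in turn. The calls of Mymk, Mymx, Myof, Dysf, Trim72 and Cdh2 held in all 11 alternatives, and 5 to 7 of the 10 genes were lower. Among all genes, 1858 to 2514 were called lower there, with 11801 to 16353 genes tested. Where 5 of the 10 were lower, 1901 of 11890 tested genes were lower without shGAA 3, and 2015 of 11915 without shScrambled 3. Leaving out 1 library moved Cav3 between -1.34 and -0.76, Bin1 between -0.24 and -0.13 and Cdon between -0.16 and 0.008, where Cdon changed sign without shScrambled 2. Cav3 lost its call in DESeq2 (-1.06, adjusted p = 0.113) and when any 1 library except shScrambled 2 was left out. Bin1 lost it when scaled by library size alone (-0.13, adjusted p = 0.0668). The causes were not tested. With that scaling the median of all genes moved to 0.05 and 60.0% of calls were higher (2809 higher, 1872 lower), against 48.4% (2182 higher, 2330 lower). The higher genes of caveolae and tubules numbered 4 with library size as the only scaling, 2 in DESeq2, 2 without the filter and 1 to 2 with 1 library left out. Higher fusion signalling genes numbered 4 to 8 and higher repair partners 1 to 2 with 1 library left out. The lower cadherin partners numbered 1 in DESeq2 and 1 to 2 with 1 library left out. Deviations of same-numbered libraries correlated at -0.0394, 0.0558 and -0.0109, so no shared deviation was seen. This cannot decide whether same-numbered libraries were grown or prepared together, which the labels do not give. With the replicate block 7 genes were lower and 1 higher, Mymk was at -1.07 (adjusted p = 0.0105), no call of the 10 genes changed, and 2037 genes in all were higher and 2197 lower. After the data were seen, the same alternatives were added for the count of genes lower by at least 2-fold, the myotube and proliferation markers and 44 partner and likeness genes. That 2-fold count was 0 to 4 with 1 library left out, against 1.69% to 1.96% of all tested genes. The higher myotube markers numbered 0 to 1 with 1 library left out, 1 under scaling by library size and 1 without the filter. Of the 44 genes 39 kept direction and call. Dock1 (0.18) and Dnm2 (0.16) were called higher under that scaling, and Cdh5 lost its call in DESeq2 (-1.38) and at -1.22 to -0.95 with 1 library left out. Mtm1 lay at -0.001 with the replicate block and -0.098 to 0.092 with 1 library left out, and Myod1 at -0.015 to 0.086, both without a call. RPKM, ratios and correlations were not recomputed. Cav3, at 90 counts in all, is limited by depth.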
